A study of Mus musculus with 8 samples.

Results

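The kinesin, dynein and dynactin genes were taken as all genes whose symbol starts with Kif followed by a digit, with Klc followed by a digit, with Dync or with Dctn. The platform annotation gave 54 such genes on 60 probe sets that carry 1 symbol each. For each gene the probe set with the highest mean over the 8 arrays was used, and the gene was kept where that mean exceeded 4.30 in log2 units, the 30th percentile over the probe sets of the chip. This left 47 member genes of 16026 genes tested. The other 7 genes, Kif14, Kif20b, Kif23, Kif2b, Kif2c, Kif4 and the pseudogene Kif4-ps, were below that limit, with probe set means of 3.34 to 4.28. The limit used the mean over all 8 arrays and no difference between groups. Just inside it were Kif15 (4.304) and Kif20a (4.312), and just outside it Kif2b (4.276) and Kif4-ps (4.235). The light chain gene Klc2 had no probe set of its own name and was not analysed here.

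Kinesins and cytoplasmic dynein are motor proteins that walk along microtubules and use ATP as fuel. In axons most kinesins carry vesicles, mitochondria and cytoskeletal proteins away from the cell body, and cytoplasmic dynein, with its activating complex dynactin, carries endosomes and signalling cargo back. Spinal motor neurons have long axons and depend on both directions, and inherited changes in KIF5A, DYNC1H1 and DCTN1 are known causes of motor neuron or axon disease in people.

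RNA was taken from the cervical cord of C57BL/6 males, going by the labels, and was measured on 8 Affymetrix whole-transcript arrays, 2 for each of 4 groups. In the acupoint group, mice received MPTP-HCl intraperitoneally at 20 mg/kg of free base every 24 h for 4 weeks and were needled by hand on both sides at GB34 and LR3. In the non-acupoint group, mice received the same MPTP and were needled at both hips. Needling in both groups was given 2 h after the first injection and then every 48 h, in 14 sessions. In the MPTP group, mice received the same MPTP without needling, and in the control group, mice received daily saline for 4 weeks. All mice were 6 weeks old at the start of the husbandry the labels describe. MPTP is a neurotoxin that destroys dopaminergic neurons, whose cell bodies lie in the midbrain and not in the cord. Each array has a mouse number in its label, but nothing says whether it holds 1 animal or a pool. The p-values therefore rest on the spread between the samples at hand, part of which may be technical, and precision is limited by how few arrays there are. Values are log2 signals, so a difference of 1 is a doubling of signal, and levels of different genes on different probe sets cannot be set against each other.

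Pan-neuronal markers averaged 10.37 to 10.46 on the 6 arrays from MPTP-treated mice and 10.16 and 10.15 on the control arrays, so neuronal RNA was present on every array. Markers of skeletal muscle were uneven. The mean of 13 muscle genes was 6.77 and 5.27 on acupoint replicates 1 and 2, 5.18 to 5.64 on the non-acupoint and MPTP arrays, and 7.35 and 8.80 on control replicates 1 and 2. All 13 muscle genes were detected above the filter. Meningeal fibroblast and Schwann cell markers were also uneven within groups, at 6.38 to 8.49 and 4.59 to 6.99. Across the genes tested, arrays correlated at 0.9754 to 0.9964. In bulk tissue, fewer cells of a type and less RNA per cell cannot be told apart.

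The comparison of MPTP with saline asked which motor genes differed after the toxin. All 3 conventional kinesin heavy chain genes, 2 of 4 kinesin-2 genes, 3 of 5 cytoplasmic dynein 1 genes and 2 of 6 dynactin genes rose, by 1.23-fold to 1.57-fold. The dynein heavy chain gene Dync1h1 and the vesicle kinesin genes Kif1a and Kif1b did not pass the test. None of the 47 members fell. In all, 10 of 47 members rose at an adjusted p under 0.05 (21.3%, limma with Benjamini-Hochberg adjustment over all 16026 genes), against 13.7% of all genes tested. In either direction the members' share was also 21.3%, against 16.8% of all genes, and 3.10% of all genes fell. The median difference was 0.12 over the members and 0.061 over all genes. MPTP arrays lay above both control arrays for 25 members and below both for 8, against 41.9% and 22.1% of all genes. At an unadjusted p under 0.05 there were 18 members, 17 of them higher, against 31.6% of all genes.

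All 10 members that rose were among the 24 with a mean signal above 8, and none of the 23 dimmer members passed. Of all 2199 genes that rose, 1439 were among the 4950 of 16026 genes above that level. Kif3b, which passed, lay just above it, with a mean of 8.01. The share of members that rose above that level was 41.7%, against 29.1% of the 4950 genes above it, a level chosen after the values were seen. The dimmer members ranged from -0.47 to 0.35, with 12 of 23 positive. Muscle markers were lower on all 6 arrays from MPTP-treated mice than on either control array, and their part in these results was not tested. With control replicate 2 and acupoint replicate 1 left out together, the arrays with the most muscle signal in the control and the MPTP-treated mice, 14 members passed, 13 higher and 1, Kif7, lower, beside 4072 of all 16026 genes (3160 higher and 912 lower). The Kif7 call rests on control replicate 1 alone, at 6.72, while control replicate 2 was at 6.12.

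**Figure D1:**
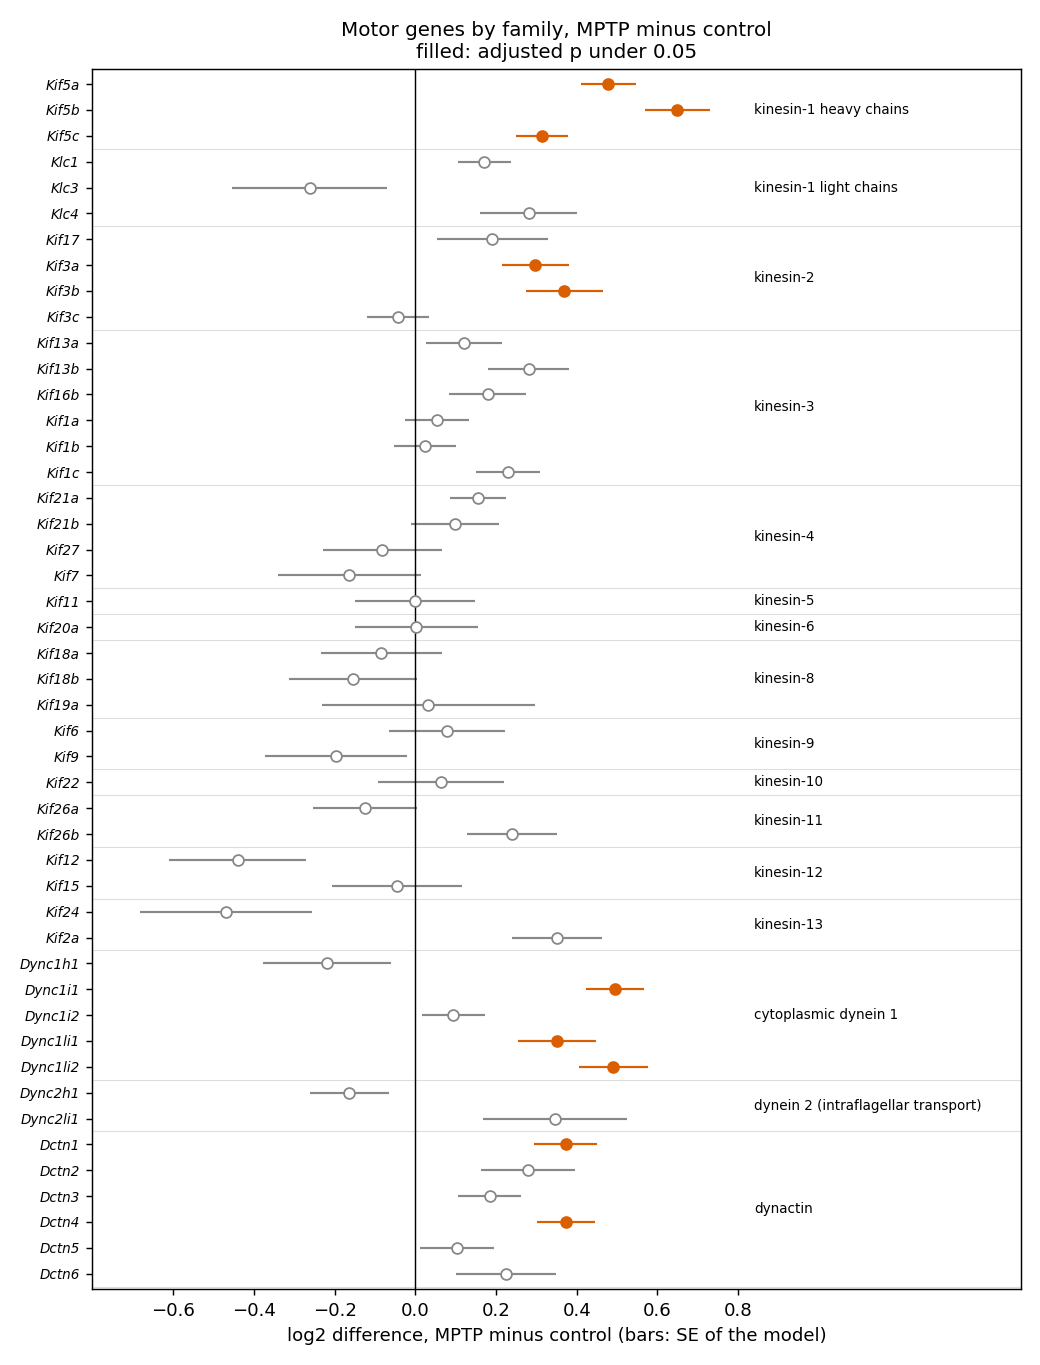
Log2 difference in signal between the MPTP and the control arrays for each of the 47 member genes, grouped by family from top to bottom. Points are model estimates from 2 arrays against 2, bars are the SE of the limma model, and filled points mark the 10 genes with an adjusted p under 0.05. All 3 kinesin-1 heavy chains are filled and lie between 0.31 and 0.65.

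The kinesin-1 heavy chains are the motor subunits of conventional kinesin. Kif5a and Kif5c are enriched in neurons, and Kif5b is made in most cell types. Kif5b had 10.96 and 11.04 on the MPTP arrays, against 10.42 and 10.28 on the control arrays. The needled arrays of the same gene had 10.81 and 10.96 (acupoint) and 11.05 and 11.11 (non-acupoint), so all 6 arrays from MPTP-treated mice lay above both controls. Kif5b rose 1.57-fold (log2 0.65, SE 0.08, limma adjusted p = 0.00278), the largest difference among the members on the probe sets used. Kif5a had 11.15 and 11.22 on the MPTP arrays, against 10.71 and 10.70 on the control arrays. The acupoint arrays had 11.06 and 11.14 for Kif5a and the non-acupoint arrays 11.17 and 11.26. Kif5a rose by 0.48 (SE 0.07, limma adjusted p = 0.00411) without overlap between the control arrays and the other 6. Kif5c had 10.45 and 10.47 on the MPTP arrays, against 10.14 and 10.15 on the control arrays, with 10.38 on each array after acupoint needling and 10.444 and 10.505 after non-acupoint needling. Kif5c rose by 0.31 (SE 0.06, limma adjusted p = 0.0123). These genes are close paralogs, and the annotation of the Kif5a and Kif5c probe sets shares 1 accession, so signal from one on the probes of the other was not tested.

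The kinesin-1 light chains join the heavy chains to cargo. Klc1, the main neuronal light chain, had 10.89 and 10.84 on the MPTP arrays, against 10.71 and 10.68 on the control arrays. Its difference of 0.17 did not pass (SE 0.07, limma adjusted p = 0.110), although the arrays did not overlap. Klc4 was at 0.28 and Klc3, a light chain best known from the testis, at -0.26, and neither passed.

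**Figure D2:**
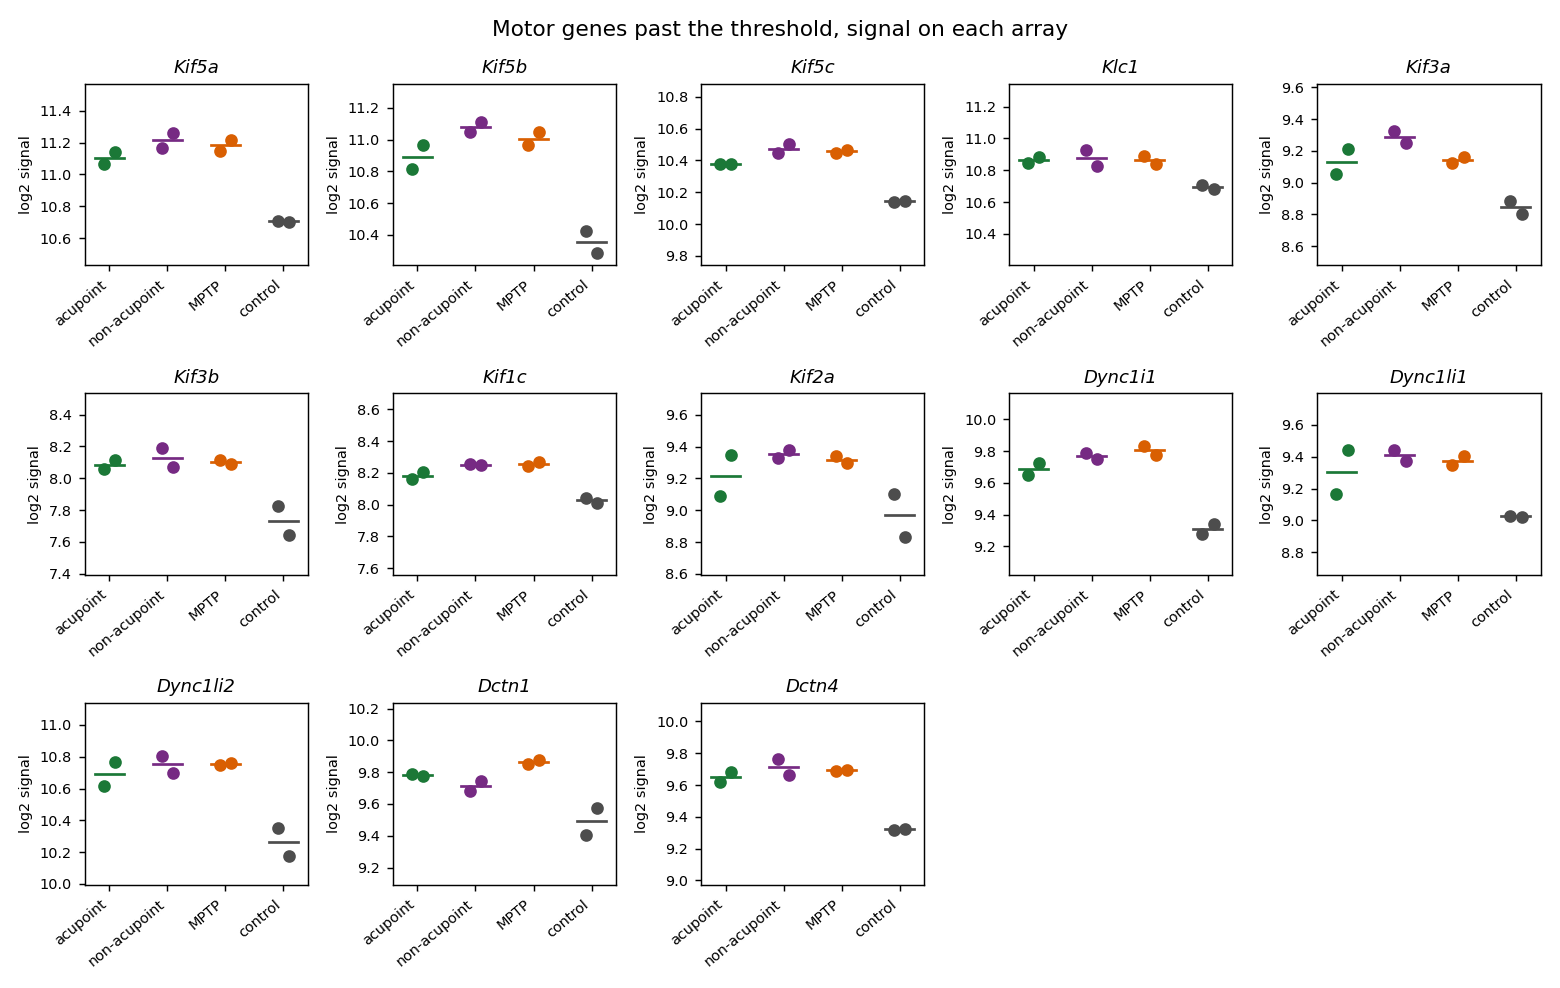
Log2 signal on each array for the 13 genes that rose in MPTP minus control or in the mean of the 3 MPTP-treated groups minus control, 1 panel a gene, with groups from left to right as acupoint, non-acupoint, MPTP and control. Points are arrays (2 a group), short lines are group means, and every panel spans the same range of log2 units. The control arrays lie below the other 6 in 12 panels, with overlap in that of Kif2a.

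Of the 47 members, 37 had 1 or more promoter sequences, 43 in all, in the RefSeq table (GRCm38.p6, 250 bases before to 50 after the gene's start). The other 10 had none there, among them Kif5a, Kif5b, Dync1li2 and Dctn4, which all rose after MPTP. The promoters of Kif5c and Klc1, which act in the same motor, are shown because both hold the full cAMP response element TGACGTCA, a site for factors of the CREB family.
Kif5c, chr2:49619036-49619335, plus strand: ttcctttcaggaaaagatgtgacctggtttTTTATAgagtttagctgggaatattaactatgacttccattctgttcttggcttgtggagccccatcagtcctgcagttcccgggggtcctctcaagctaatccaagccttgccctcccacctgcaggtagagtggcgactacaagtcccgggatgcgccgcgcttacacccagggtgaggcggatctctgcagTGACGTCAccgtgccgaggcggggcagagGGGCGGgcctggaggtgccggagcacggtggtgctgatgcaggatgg
Klc1, chr12:111758618-111758917, plus strand: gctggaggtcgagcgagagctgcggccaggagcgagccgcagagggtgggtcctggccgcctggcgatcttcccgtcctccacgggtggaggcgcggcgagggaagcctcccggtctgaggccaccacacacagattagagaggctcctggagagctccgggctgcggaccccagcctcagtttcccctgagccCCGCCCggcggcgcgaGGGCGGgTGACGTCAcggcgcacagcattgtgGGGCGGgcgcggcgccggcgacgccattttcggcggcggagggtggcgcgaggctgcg
Capitals mark matches, on either strand, to any of 8 elements: TGACGTCA, the GC box GGGCGG, the TATA box TATAAA, the CCAAT box CCAAT, the E-box CACGTG, the ETS site CCGGAAG and the consensus sites of NRF1 and of YY1. TGACGTCA begins at position -26 from the start in Kif5c and at -33 in Klc1. It was found for 5 of 37 members (Kif5c, Klc1, Dctn3, Kif17 and Kif18a), against 2.03% of all 27025 genes in the table and 2.54% of its protein-coding genes, each counted once if any of its promoters matched. Counted per promoter, the shares were 1.79% of all 32851 and 2.23% of protein-coding ones. The GC box was found for 25 of 37 members, against 49.2% of protein-coding genes, and the CCAAT box for 16, against 42.3%. The other elements were found for 0 to 7 members. These matches are a description of the sequence and do not show that a factor binds. Matches do not overlap in the promoters printed here.

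Kinesin-2 carries cargo along axons and builds cilia. Kif3a and Kif3b form its motor pair, with Kifap3 as the subunit that binds cargo. Kif3b had 8.11 and 8.09 on the MPTP arrays, against 7.83 and 7.64 on the control arrays, and rose by 0.37 (SE 0.10, limma adjusted p = 0.0290). Kif3a had 9.12 and 9.16 on the MPTP arrays, against 8.89 and 8.81 on the control arrays. It rose by 0.30 (SE 0.08, limma adjusted p = 0.0389), and its highest values, 9.33 and 9.25, were on the non-acupoint arrays. The partner Kifap3, not a member by its symbol, rose by 0.24 (limma adjusted p = 0.0358). Kif3c, a neuronal partner of Kif3a, was the steadiest member, with 9.23 to 9.39 over all 8 arrays (SD 0.050) and a difference of -0.04. Kif17, a dendritic motor for glutamate receptor cargo, was dim (5.501 to 5.951) and at 0.19 without passing.

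Kinesin-3 motors carry synaptic vesicle precursors, mitochondria and endosomes. All 6 members were positive, at 0.02 to 0.28, as were 9505 of all 16026 genes, and none of the 6 passed. Kif1a, which carries synaptic vesicle precursors, had 10.90 and 10.83 on the MPTP arrays, against 10.78 and 10.85 on the control arrays. Its difference was 0.05 (95% interval -0.12 to 0.23). Kif1b, which carries mitochondria and vesicle precursors, had 11.10 and 11.08 on the MPTP arrays, against 11.002 and 11.135 on the control arrays, a difference of 0.02 (95% interval -0.15 to 0.20). For both genes the arrays of the 2 groups overlapped. Both intervals end below the estimates of Kif5a, Kif5b and Kif5c, but a test of the difference between genes was not made. Kif13b, which carries scaffold proteins to the membrane, was at 0.28 (limma adjusted p = 0.0856).

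Kif1c, a kinesin-3 that moves Golgi-derived vesicles and RNA, was measured by 2 probe sets that disagreed in size. On the brighter probe set, used above, Kif1c had signals of 8.16 and 8.20 (acupoint), 8.26 and 8.25 (non-acupoint), 8.25 and 8.27 (MPTP) and 8.04 and 8.01 (control). The difference for MPTP minus control was 0.23 (SE 0.08, limma adjusted p = 0.0780). On the dimmer probe set its signals were 6.82 and 7.54 (acupoint), 7.65 and 7.54 (non-acupoint), 7.55 and 7.59 (MPTP) and 6.46 and 6.29 (control). With every probe set fitted as a row of its own, a choice made after the values were seen, the dimmer probe set rose 2.29-fold (log2 1.19, SE 0.19, limma adjusted p = 0.00607). Acupoint replicate 1 lay between the control arrays and the other 5 on that probe set. The other 3 members with a further probe set past the limit, Kif26b, Kif6 and Kif7, passed on none of theirs.

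**Figure D3:**
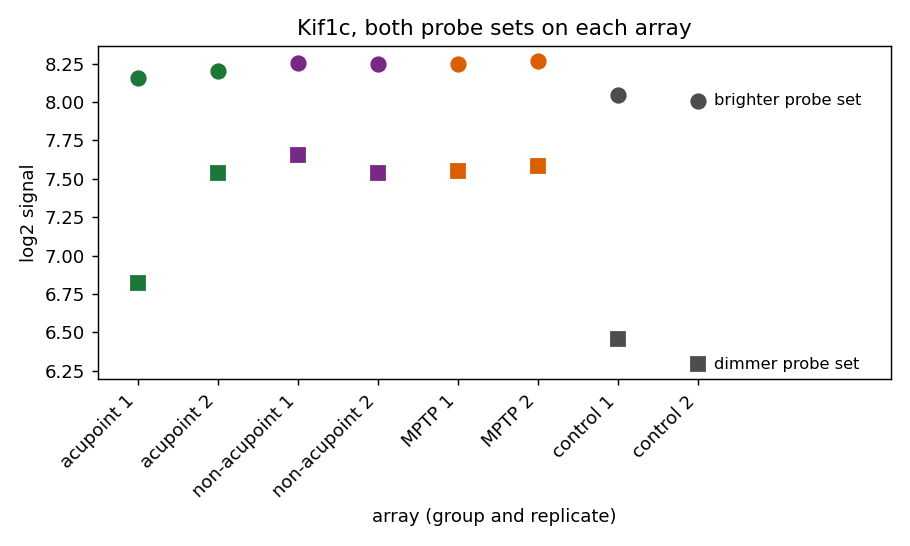
Log2 signal of both Kif1c probe sets on each of the 8 arrays, circles for the brighter and squares for the dimmer probe set, coloured by group. The dimmer probe set is at 6.29 and 6.46 on the control arrays and at 7.54 to 7.65 on 5 of the 6 others, with acupoint replicate 1 at 6.82.

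The other kinesin families hold mitotic, ciliary and microtubule-regulating motors. Kif2a, which shortens microtubules and limits axon branches, had 9.34 and 9.29 on the MPTP arrays, against 9.10 and 8.83 on the control arrays. Its difference of 0.35 did not pass (SE 0.11, limma adjusted p = 0.0587). Kif21a, a kinesin-4 of axons and growth cones, was at 0.16 (limma adjusted p = 0.164) without overlap, and Kif21b at 0.10. The 6 mitotic motors measured, Kif11, Kif15, Kif18a, Kif18b, Kif20a and Kif22, were at 3.97 to 5.22 on every array, in the lowest part of the tested range. Their differences ran from -0.15 to 0.06 and their smallest adjusted p was 0.562. The motors best known from cilia, Kif6, Kif9, Kif19a, Kif7 and Kif27, were at -0.20 to 0.08 and did not pass. Kif19a varied most of all members, with an SD of 0.32 over the 8 arrays. Kif12 (-0.44) and the centriole kinesin Kif24 (-0.47) were the lowest of all, with adjusted p of 0.109 and 0.166 in limma. Without control replicate 1, Kif24 was at -0.80, a difference that rests on control replicate 2 alone. Its control replicates 1 and 2 were at 4.47 and 5.13. Its MPTP arrays were at 4.28 and 4.39, near the limit of 4.30. Of the kinesin-11 genes, Kif26b was at 0.24 and Kif26a at -0.12, and neither passed.

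Cytoplasmic dynein 1 is built on a heavy chain that holds the motor, with intermediate and light intermediate chains that bind dynactin and cargo adaptors. Of its 5 genes, 3 rose and Dync1i2 and Dync1h1 did not pass. Dync1i1, the intermediate chain enriched in neurons, had 9.83 and 9.77 on the MPTP arrays, against 9.28 and 9.34 on the control arrays, and rose by 0.50 (SE 0.07, limma adjusted p = 0.00433). Dync1li2 had 10.75 and 10.76 on the MPTP arrays, against 10.35 and 10.18 on the control arrays, and rose by 0.49 (SE 0.09, limma adjusted p = 0.00727). Dync1li1 had 9.35 and 9.41 on the MPTP arrays, against 9.03 and 9.02 on the control arrays, and rose by 0.35 (SE 0.10, limma adjusted p = 0.0363). For these 3 genes every array from MPTP-treated mice was above both controls, as for 26.1% of all genes. Dync1i2, the intermediate chain of most tissues, was at 0.09 and did not pass. The heavy chain gene Dync1h1 had 10.23 and 10.07 on the MPTP arrays, against 10.31 and 10.43 on the control arrays. Its difference was -0.22 (95% interval -0.58 to 0.14, limma adjusted p = 0.397), so the MPTP arrays were the lower ones without passing. Acupoint replicate 1, at 10.69, had the highest Dync1h1 signal of all arrays, while acupoint replicate 2 was at 10.09.

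The promoters of Dync1li1 and Dync1i1, 2 subunits of the same motor that both rose, are shown because they differ in composition.
Dync1li1, chr9:114688581-114688880, plus strand: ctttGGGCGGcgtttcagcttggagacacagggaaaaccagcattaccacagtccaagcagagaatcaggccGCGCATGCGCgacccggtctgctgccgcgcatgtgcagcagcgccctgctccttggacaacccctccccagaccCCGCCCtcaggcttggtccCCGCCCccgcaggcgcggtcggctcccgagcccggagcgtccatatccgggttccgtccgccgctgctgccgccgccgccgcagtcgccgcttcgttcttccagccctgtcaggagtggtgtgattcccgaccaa
Dync1i1, chr6:5725389-5725688, plus strand: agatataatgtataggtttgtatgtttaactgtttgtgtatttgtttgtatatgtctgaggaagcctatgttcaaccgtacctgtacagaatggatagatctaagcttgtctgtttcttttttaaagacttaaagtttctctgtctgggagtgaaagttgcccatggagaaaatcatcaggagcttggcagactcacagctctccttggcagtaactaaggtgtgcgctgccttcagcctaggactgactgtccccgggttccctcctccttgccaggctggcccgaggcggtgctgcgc
That of Dync1li1 has 68.0% G or C and 31 CpG pairs, and holds 3 GC boxes and the only NRF1 site among the members' promoters, at position -178 from the start. An NRF1 site was found for 1.47% of protein-coding genes. That of Dync1i1 has 46.7% G or C and 6 CpG pairs and matched none of the 8 elements.

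Dynein 2 returns cargo from the tip of cilia and has a heavy chain of its own. Dync2h1 had 7.59 and 7.48 on the MPTP arrays, against 7.64 and 7.76 on the control arrays, and was at -0.16 (limma adjusted p = 0.297). Dync2li1, its light intermediate chain, was at 0.35 (SE 0.18, limma adjusted p = 0.222), with 6.12 and 6.05 on the MPTP arrays against 5.77 and 5.71 on the control arrays. On acupoint replicate 1 it was at 5.57, below both controls. Neither dynein 2 gene passed.

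Dynactin links dynein to cargo and to the microtubule. All 6 members were positive, at 0.10 to 0.37, as were 9505 of all 16026 genes. Dctn4, a subunit of the pointed end of the dynactin filament, had 9.69 and 9.70 on the MPTP arrays, against 9.32 on both control arrays, and rose by 0.37 (SE 0.07, limma adjusted p = 0.00988). Dctn1, the large subunit that grips the microtubule, had 9.85 and 9.88 on the MPTP arrays, against 9.41 and 9.58 on the control arrays. It rose by 0.37 (SE 0.08, limma adjusted p = 0.0136). Dctn2, the subunit of the shoulder also called dynamitin, was at 0.28 (limma adjusted p = 0.133), Dctn6 at 0.22, Dctn3 at 0.18 and Dctn5 at 0.10. Of these 4, all but Dctn5 had MPTP arrays above both controls, as did 41.9% of all genes.

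Many of these calls were lost when 1 array was left out, which leaves 1 array in that group. The members' median was 0.12 and 0.13 without MPTP replicates 1 and 2, against 0.12 with all arrays. It moved more with the control arrays, at 0.14 without control replicate 1 and 0.16 without control replicate 2. Without MPTP replicate 1, and without MPTP replicate 2, Kif5b alone remained of the 10, while calls over all genes fell to 69 and 194, against 2696 with all arrays. Without control replicate 2, 4 members passed, Kif5a, Kif5b, Dync1i1 and Dctn1, and 681 of all genes did. All 10 differences stayed positive with each of the 8 arrays left out in turn. Relative to their size they moved most for Kif3b, at 0.28 to 0.46, and Dctn1, at 0.29 to 0.46, with both ends of each set by which control array was left out. Kif5b ran between 0.58 and 0.72, Dync1li2 between 0.41 and 0.58, Dync1i1 between 0.46 and 0.53 and Kif5a between 0.44 and 0.51. Kif3a lay between 0.26 and 0.34, Dync1li1 between 0.32 and 0.38, Dctn4 between 0.37 and 0.38 and Kif5c between 0.305 and 0.323. Scaling by cyclic loess left 5 calls, Kif5a, Kif5b, Dync1i1, Dync1li2 and Dctn4, with a members' median of 0.073 against 0.037 over all genes. The split over all genes moved with the scaling. In all, 2199 genes were higher and 497 lower as deposited, 1338 and 752 after cyclic loess, and 4028 and 218 with arrays centred on their medians.

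With the 2 needled groups added, the mean of the 3 MPTP-treated groups was compared with control. This comparison shares its control arrays, and the MPTP arrays, with the one above. It called 13 of 47 members, all higher (27.7%, against 19.9% of all genes higher and 25.2% in either direction), and none lower, against 5.35% of all genes. The 10 genes above were among them, and Klc1 (0.18, limma adjusted p = 0.0411), Kif1c (0.20, limma adjusted p = 0.0454) and Kif2a (0.33, limma adjusted p = 0.0266) were added. Kif5b was at 0.64 (limma adjusted p = 0.000644), Kif5a at 0.46 (0.00103 by the same test) and Dync1i1 at 0.44 (0.00136). All 6 arrays lay above both controls for 18 members, against 26.1% of all genes, and below both for 1, Dync2h1, against 10.9%. Among members above a mean of 8 the share that rose was 54.2%, against 39.5% of all genes above that level. Without acupoint replicate 1 the count was 21, with Dync1h1 (-0.21) and Klc3 (-0.44) among the calls as lower, while calls over all genes rose to 5870 (4436 higher and 1434 lower), against 4041 with all arrays. Without control replicate 2 it was 7, beside 1404 of all genes. A test for any difference among the 4 groups called 8 members, all among the 10 above (17.0%, against 10.8% of all genes, limma F-test).

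**Figure D4:**
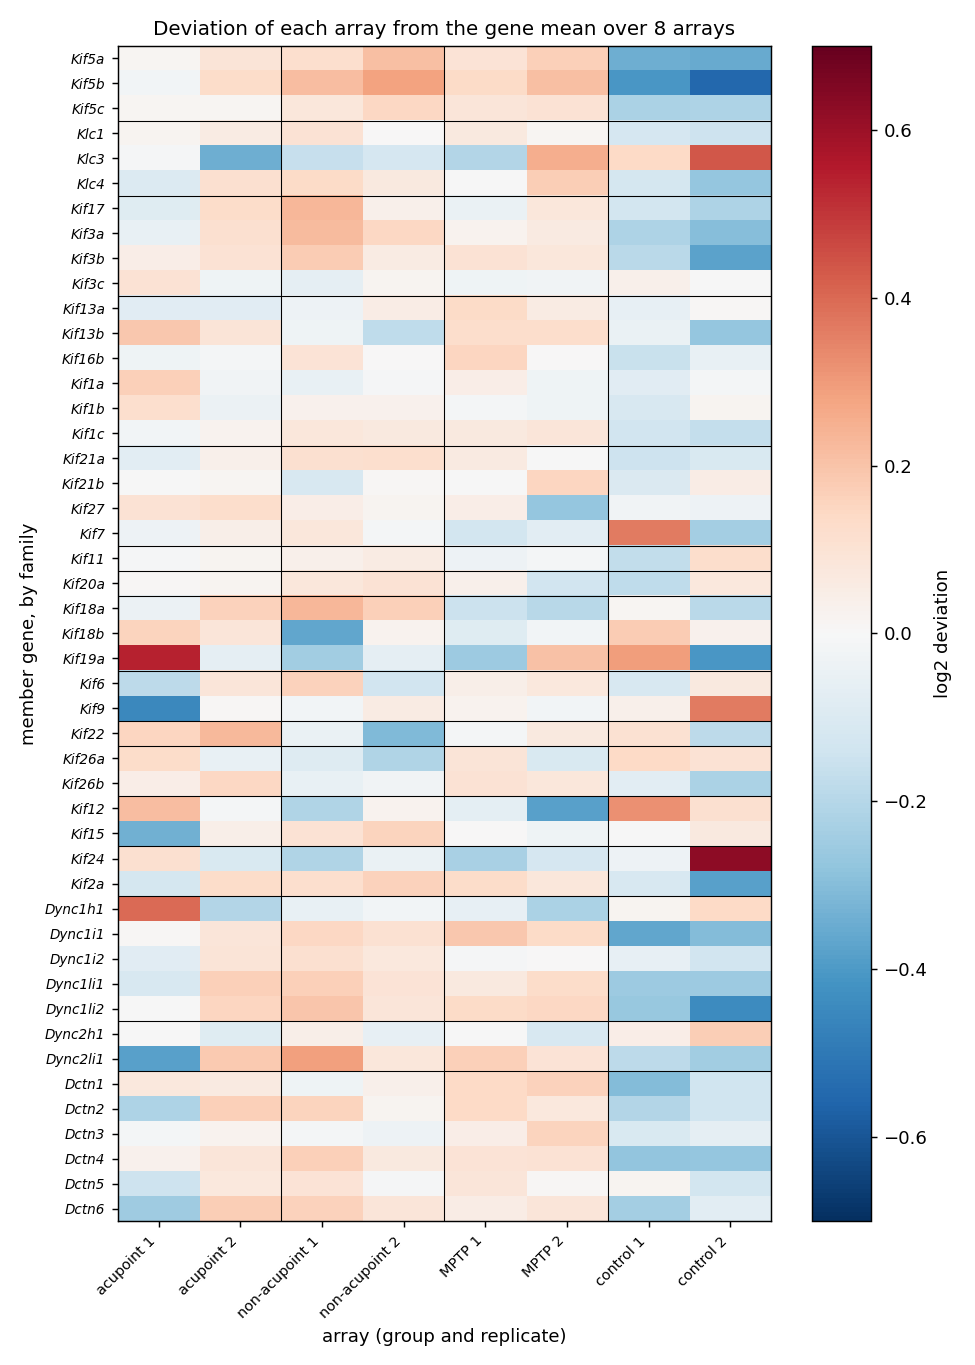
Deviation of each array (columns, acupoint, non-acupoint, MPTP and control from left to right) from the mean over 8 arrays of each member gene (rows, by family), in log2 units, with red above and blue below the mean. The control arrays are below the mean in all rows of the kinesin-1 heavy chains and of Dync1i1, Dync1li1 and Dync1li2, and acupoint replicate 1 is high for Kif19a and Dync1h1.

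The comparisons of each needled group with MPTP alone asked whether needling moved motor genes in treated mice. No member passed in acupoint needling minus MPTP, where 0.00% of all genes passed in limma. None had an unadjusted p under 0.05, against 1.25% of all genes. Acupoint arrays lay above both MPTP arrays for 8 members and below both for 10, against 12.3% and 11.9% of all genes. The 10 genes that had risen after MPTP were all slightly negative, at -0.12 to -0.01, with 95% intervals between -0.30 and 0.20. For Kif5b the difference was -0.12 (95% interval -0.30 to 0.06), for Kif5a -0.08 (-0.23 to 0.07) and for Dync1i1 -0.12 (-0.28 to 0.04). These differences share the MPTP arrays with the comparison that chose the genes, so no direction is read from them. Of the 6 arrays from MPTP-treated mice, acupoint replicate 1 was the lowest for 8 of the 10 genes. It was the lowest for 67.2% of all 2199 genes that rose after MPTP and for 34.8% of all genes. The same array had the highest muscle markers of the 6, at 6.77, and their part was not tested. Without it the members' median was 0.01, against -0.04 with all arrays.

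No member passed in non-acupoint needling minus MPTP either, where again 0.00% of all genes passed in limma. Non-acupoint arrays lay above both MPTP arrays for 12 members and below both for 6, against 17.1% and 19.2% of all genes. An unadjusted p under 0.05 was reached by 2 members, named here after their values were seen, against 1.70% of all genes. Kif18a, a mitotic kinesin near the limit of the dim probe sets, had 4.57 and 4.50 after non-acupoint needling, against 4.18 and 4.14 with MPTP alone (log2 0.37, limma adjusted p = 1). Kif13b had 8.60 and 8.45 after non-acupoint needling, against 8.75 on both MPTP arrays (log2 -0.23, limma adjusted p = 1). Among the axonal motors, differences were 0.08 for Kif5b (95% interval -0.10 to 0.26), 0.03 for Kif5a (-0.12 to 0.19) and -0.15 for Dctn1 (-0.32 to 0.03).

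**Figure D5:**
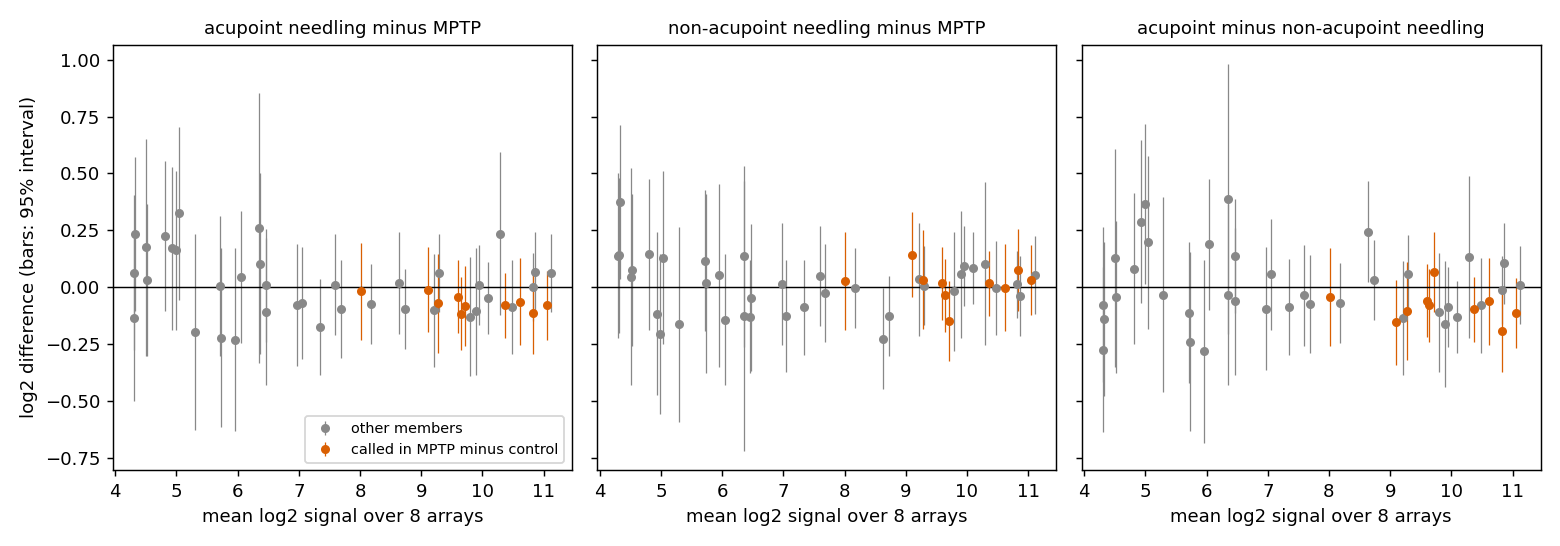
Log2 difference of each of the 47 member genes (vertical axis, bars are 95% intervals of the limma model) against its mean log2 signal over 8 arrays, in the 3 comparisons among MPTP-treated groups. Orange points are the 10 genes called in MPTP minus control and grey points the other members. No gene passed the adjusted threshold in any panel, and intervals are widest among dim genes.

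Acupoint minus non-acupoint needling asked whether the site of needling mattered. No member passed, nor did any gene tested (0.00% in limma). Acupoint arrays lay above both non-acupoint arrays for 7 members and below both for 13, against 15.2% and 13.1% of all genes. Of the members, 3 had an unadjusted p under 0.05, against 3.77% of all genes, and they are named here after their values were seen. Kif5b had 10.81 and 10.96 after acupoint needling, against 11.05 and 11.11 after non-acupoint needling (log2 -0.19, 95% interval -0.37 to -0.01, limma adjusted p = 0.936). Kif13b, with 8.82 and 8.72 after acupoint needling and 8.60 and 8.45 after non-acupoint needling, was at 0.24. Kif22, a kinesin that binds chromosomes, had 5.14 and 5.22 after acupoint needling, against 4.94 and 4.68 after non-acupoint needling, and was at 0.37. Both had the same adjusted p as Kif5b. The kinesin-1 heavy chains were all lower on the acupoint arrays, at -0.19 to -0.10, without overlap. Without acupoint replicate 2 there were 2 calls, Dync1h1 at 0.43 (limma adjusted p = 0.0371) and Dctn6 at -0.37 (limma adjusted p = 0.0498), which rest on acupoint replicate 1 alone, and 622 of all genes passed in that fit.

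Genes that work with these motors were followed through lists. After MPTP 13.7% of all genes tested rose and 3.10% fell, and 29.1% of genes with a mean signal above 8 rose. The lists were not tested against these shares. Among 15 cargo adaptors and other kinesins measured, 4 rose after MPTP and none fell, with a median of 0.098 against 0.061 over all genes. They were the kinesin-binding protein gene Kifbp (0.43, SE 0.07, limma adjusted p = 0.00534), the kinesin receptor gene Ktn1 (0.41), Kifap3 (0.24) and the scaffold gene Spag9 (0.26). Among 13 dynein regulators and dynactin partners 3 rose and none fell (median 0.18). These were Nde1, which recruits the dynein activator Lis1 (0.52, SE 0.10, limma adjusted p = 0.0102), and Capzb (0.36) and Capza1 (0.40), the capping protein subunits that close the dynactin filament. Pafah1b1, which encodes Lis1, was at 0.18 without passing. Of 5 dynein light chain genes none passed, with Dynll2 at 0.20 and Dynll1 at 0.18.

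The microtubules on which motors run had 8 of 27 genes higher and none lower (median 0.11). Their mean level was 9.74 to 9.97 on the 8 arrays. Of all genes with a mean above 8, 29.1% rose, against 13.7% of all genes. They included the tubulin genes Tubb5 (0.60, SE 0.06, limma adjusted p = 0.00171), Tubb2b (0.65) and Tubb2a (0.49) and the plus-end protein gene Mapre1 (0.47). The axonemal dyneins, which beat motile cilia and are no members, stood on a list with other genes of ependymal cilia. Of its 16 genes 2 fell and none rose (median -0.04), Dnah7b (-1.02, SE 0.19, limma adjusted p = 0.00869) and Dnah12 (-0.64), while Foxj1, the regulator of motile cilia, was at 0.21 without passing. The 11 axonemal dynein genes of the list, split off after the values were seen, had a median of -0.22, with 10 of 11 negative. They were dim, with means over 8 arrays of 4.66 (Dnah11) to 5.81 (Dnaic2) against the limit of 4.30. Dnah7b was at 3.95 on non-acupoint replicate 2. The other 5 cilia genes were all positive, at 0.06 to 0.26, and none passed. Of 11 actin-based motors Myo6 rose by 0.25 and Myo9a fell by 0.67 (limma adjusted p = 0.00362), with a median of 0.04. None of 10 mitosis genes passed (median -0.04). None of these lists had a call in the comparisons among MPTP-treated groups.

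Markers of several cell types moved with these results, while 13.7% of all genes rose and 3.10% fell after MPTP. Among genes with a mean signal above 8, 29.1% rose. The neuronal, astrocyte and oligodendrocyte markers had mean levels of 9.94 to 10.96 on the 8 arrays. Of 10 neuronal markers 7 rose after MPTP (median 0.32), of 8 motor neuron markers 5 rose (median 0.47), and all 7 astrocyte markers rose (median 0.58). Of 7 oligodendrocyte markers 2 rose (median 0.20) and of 7 microglial markers 4 rose (median 0.44). Muscle markers fell for 11 of 13 (median -2.82). None of 4 sensory ganglion neuron markers passed (median -0.57), and 2 of them fell in the mean of the 3 MPTP-treated groups minus control. Markers of Schwann cells (3 genes, median -0.58) and meningeal fibroblasts (6 genes, median -0.42) did not pass either. Nor did those of ependymal cells (6 genes, median 0.16) and endothelial cells (5 genes, median 0.22). The 6 ependymal genes also stood on the lists of cilia or dynein light chain genes above, so they are no separate result. Of 2 erythroid markers 1 rose (median 1.29). Mean levels of the neuronal markers did not overlap between the 6 arrays from MPTP-treated mice and the control arrays, and their part in the motor gene results was not tested.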

How the data were processed

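The deposited table holds log2 signals, 1 for each probe set on each array. Per the submitters' processing notes, Affymetrix Expression Console and RMA were used, and their versions are not given in the sources used here. As a method, RMA subtracts background, equalises arrays by quantiles and summarises the probes of a set. That the scale is log2 was inferred from the size of the values.

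Of 35557 probe sets, 21789 carry 1 gene symbol in the platform annotation, 1621 several and 12147 none. Probe sets with 1 symbol and a mean over 8 arrays above the 30th percentile were kept (17581), 1 a gene by the highest mean, for 16026 genes. All 47 member symbols matched RefSeq (GRCm38.p6). limma 3.58.1 (R 4.3.3) fitted the 4 group means over the 8 arrays, using lmFit and then eBayes with an intensity trend (4 residual and 5.34 prior degrees of freedom), for 5 contrasts and an F-test. P-values are two-sided and were Benjamini-Hochberg adjusted over all genes contrast by contrast, and genes below 0.05 count as called. With 2 arrays against 2 an exact permutation p cannot go below 0.333.

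Genes were named by a rule: the brightest member of each family, 13 axonal motors, members past the threshold, those with the lowest and highest SD, those next to the filter, and 2 to 4 genes a list. The members, the gene lists and this rule were chosen with earlier results of these data known. The fit was checked on simulated data. Promoters were searched in Python 3.11.15, and plots drawn with matplotlib 3.10.9. No batch was tested, since no scan date was used here. Alternatives covered scaling, filter, probe set choice, variance model, replicate block and leaving out arrays.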

Additional observations from a re-analysis of the deposited data

How the results depend on the processing

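All 23 member results past the threshold kept their sign in every alternative, and 6 of them kept their call in every one. Of the 212 other member results, 104 changed sign somewhere and 31 passed in at least 1 alternative. Calls over all 16026 genes in the same fit are given in brackets. For MPTP minus control the 10 calls (2696) became 5 after cyclic loess (2090), 18 with arrays centred on their medians (4246), which moved the median of all genes to 0.22 and the members' median to 0.28, and 6 without an intensity trend (1824). With 1 array left out they ranged from 1 to 14 (69 to 4225). For the mean of the 3 MPTP-treated groups minus control the 13 calls (4041) became 8 after cyclic loess (3537) and 25 with centred arrays (5768), and 7 to 21 with 1 array left out (1404 to 5870). The 8 calls of the F-test (1724) became 5 after a further quantile normalization (1691), 4 after cyclic loess (1287), 1 without a trend (531), and 0 to 16 with 1 array left out (20 to 4030), the lowest without control replicate 2. Leaving out both muscle-rich arrays, an alternative chosen after seeing the data, gave counts of 14 (4072), 16 (5201) and 11 (3044). Needling comparisons had 0 member calls in all alternatives except acupoint minus non-acupoint needling with 1 array left out (0 to 2). The causes were not tested. Where 1 array stands for a group, it is assumed to vary like the others.

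Groups share the replicate numbers 1 and 2, but deviations from the group means correlated at -0.328 to 0.174 between same-numbered arrays, so the numbers are not taken to pair the samples. With the replicate number as a block the counts were 9 for MPTP minus control (2210 of all genes), 11 for the mean of the 3 groups minus control (3561), 5 for the F-test (1167) and 0 for the needling comparisons. RMA values carry no measure of signal over background, and dim members have the widest intervals.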

Other observations

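Some dim members differed widely between the control arrays. Kif24 had 4.47 and 5.13 on control replicates 1 and 2, Kif7 had 6.72 and 6.12, and Kif19a had 6.65 and 5.95, with SDs of 0.47, 0.43 and 0.49 in the same order (n = 2). On the 6 arrays from MPTP-treated mice Kif24 ran from 4.28 to 4.62, Kif7 from 6.23 to 6.44 and Kif19a from 6.10 to 6.89. Between the 2 arrays of a group the SD of Kif19a was 0.43 (acupoint), 0.13 (non-acupoint) and 0.32 (MPTP), against 0.49 for control. Kif9, known from motile cilia, had 5.28 on acupoint replicate 1, 5.71 to 5.79 on the other 5 arrays from MPTP-treated mice, and 5.76 and 6.09 on the control arrays.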
